A study of Mus musculus with 21 samples.

Results

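The genes followed here, called the HIRE1 neighbours, were 10 of the 24594 genes counted, and lie on mouse chromosome 6 around HIRE1, a distal regulatory region studied for its action on Hoxa2. They were taken by gene symbol, and not by any measured value. On the GRCm38 build with GENCODE M21 annotation, 5 of the 10 lay between HIRE1 and the Hoxa cluster (Nfe2l3, Hnrnpa2b1, Cbx3, Snx10 and Skap2). The other genes did not: 2 lay on the centromeric side of HIRE1 (Osbpl3 and Cycs) and 3 beyond the Hoxa cluster (Hibadh, Tax1bp1 and Jazf1). The set is therefore a neighbourhood on both sides of HIRE1 and not only the genes that HIRE1 would have to pass to reach Hoxa2.

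The genotype series held pharyngeal arches 2 and 3 (PA2 and PA3) dissected at E10.5 (E for embryonic day) from WT embryos and from HIRE1del/del embryos, in which both copies of HIRE1 were removed. The stage series held PA2 at E10.5 and the pinna, the outer ear that forms largely from PA2, at E12.5 and E14.5, all WT for HIRE1. Each of the 7 groups had 3 libraries, and the labels call all of them cranial neural crest cells (CNCCs). The stage cells were sorted for a red fluorescent reporter turned on by Wnt1::Cre, which is active in the neural crest and the dorsal neural tube, after digestion with papain at E14.5 and with trypsin at both earlier stages, so that enzyme and stage cannot be told apart between E12.5 and E14.5. No sorting is stated for the genotype series. All mice were kept on a mixed C57Bl/6J and CD1 background, and the deletion had been made in C57Bl/6J. The labels do not say whether libraries of a group came from separate litters, so the p-values measure the spread between these libraries only.

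Library totals lay between 25.8 M and 32.2 M counts for genotypes and between 25.8 M and 49.1 M for stages, where the E14.5 libraries were the deepest at 47.5 M or more. Markers of crest mesenchyme (8 genes) summed to between 685 and 1181 counts-per-million (CPM) per genotype library and between 1630 and 3999 CPM per stage library. Markers of red blood cells (5 genes) summed to between 1310 and 2887 CPM in PA2 and between 10512 and 21121 CPM in PA3 of the genotype series, against at most 7.13 CPM in the stage series. The dissected arches thus held other cells beside crest. In such bulk samples, fewer cells of a type and less RNA per cell cannot be told apart. All 10 genes passed the filter on low counts in both tables.

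An enhancer can act on genes far along the chromosome, and the domains into which chromosomes fold, called TADs, usually keep enhancers and promoters of different domains apart. Hoxa2 is a homeodomain factor that gives PA2 its identity. Genes lying along the same stretch are common candidates to respond to the same enhancer, and many of them, as here, have general duties in every cell. The comparison asked whether the neighbours went with Hoxa2 when HIRE1 was lost, between arches, or as the pinna formed.

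The neighbours were spread over 2.78 megabases. Osbpl3 (6:50293330-50456201, minus strand) ended 457 kb short of HIRE1 and Cycs (6:50562563-50566538, minus) 346.6 kb short of it. On the other side, Nfe2l3 (6:51432670-51458768, plus) began 344.8 kb beyond HIRE1, and it was followed by Hnrnpa2b1 (6:51460932-51469894, minus) at 373 kb, Cbx3 (6:51470360-51483704, plus) at 382.5 kb and Snx10 (6:51523901-51590679, plus) at 436 kb. Skap2 (6:51857422-52012549, minus) lay closest to the cluster, its start site 152.3 kb from that of Hoxa2 (6:52162417-52164831, minus). Hibadh (6:52546228-52640389, minus), Tax1bp1 (6:52713729-52766780, plus) and Jazf1 (6:52768797-53068631, minus) started 475.6, 548.9 and 903.8 kb past the Hoxa2 start.

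Hnrnpa2b1 and Cbx3 are transcribed away from each other from start sites only 466 bases apart in GENCODE (722 bases apart in RefSeq, which begins Cbx3 further in). The sequences before the start sites of the genes whose levels moved most, and of Hoxa2, are shown because they set this shared CpG-rich stretch beside those genes. They are 250 bases up to the start site (243 for Jazf1) from RefSeq on GRCm38, 5′ to 3′ on the strand of the gene, in lower case with every CpG, the dinucleotide that marks CpG-island promoters, in capitals.
Hnrnpa2b1 (chr6:51469895-51470144, minus): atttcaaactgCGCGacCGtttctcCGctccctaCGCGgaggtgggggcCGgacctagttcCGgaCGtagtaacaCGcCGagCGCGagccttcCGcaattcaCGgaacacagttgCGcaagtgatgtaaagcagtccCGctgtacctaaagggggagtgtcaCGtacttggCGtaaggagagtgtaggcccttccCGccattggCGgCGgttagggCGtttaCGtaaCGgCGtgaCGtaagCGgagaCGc
Nfe2l3 (chr6:51432419-51432668, plus): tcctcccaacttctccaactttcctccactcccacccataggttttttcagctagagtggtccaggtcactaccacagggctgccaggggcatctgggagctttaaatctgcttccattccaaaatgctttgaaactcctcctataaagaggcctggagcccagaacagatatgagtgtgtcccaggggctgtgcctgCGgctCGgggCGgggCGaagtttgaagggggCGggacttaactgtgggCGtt
Jazf1 (chr6:53068632-53068874, minus): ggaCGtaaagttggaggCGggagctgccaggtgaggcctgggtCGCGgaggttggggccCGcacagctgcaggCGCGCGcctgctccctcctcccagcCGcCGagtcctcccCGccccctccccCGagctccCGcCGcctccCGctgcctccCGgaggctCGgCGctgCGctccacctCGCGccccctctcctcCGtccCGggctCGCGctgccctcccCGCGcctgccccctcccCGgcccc
Skap2 (chr6:52012550-52012799, minus): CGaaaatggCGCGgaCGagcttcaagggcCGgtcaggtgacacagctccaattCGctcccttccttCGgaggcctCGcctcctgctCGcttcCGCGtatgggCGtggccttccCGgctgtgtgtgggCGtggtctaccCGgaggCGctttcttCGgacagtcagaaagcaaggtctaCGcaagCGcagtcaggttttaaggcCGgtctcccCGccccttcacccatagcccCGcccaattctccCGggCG
Hoxa2 (chr6:52164832-52165081, minus): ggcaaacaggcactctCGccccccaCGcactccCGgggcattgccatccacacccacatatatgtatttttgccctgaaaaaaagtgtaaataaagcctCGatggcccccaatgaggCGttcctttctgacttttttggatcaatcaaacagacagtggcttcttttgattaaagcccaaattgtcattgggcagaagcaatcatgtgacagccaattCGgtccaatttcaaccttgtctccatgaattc

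Over 250 bases, the windows of Hnrnpa2b1 and Cbx3 held 29 CpGs each, that of Jazf1 28 and that of Skap2 24, more than 93.2%, 92.4% and 88.0% of the 32851 mouse promoter windows held. The Cbx3 window is set by the RefSeq start. It lies inside the gene as GENCODE draws it and does not overlap the Hnrnpa2b1 window, so its matches are not from the stretch between the GENCODE starts. Nfe2l3 and Hoxa2 had 6 CpGs each, which is the median of all windows. On either strand, the CCAAT box (CCAAT, in 33.8% of all windows) was found 4 times before Hoxa2, 2 times before Skap2, 1 time before Hnrnpa2b1, and not before Nfe2l3, Jazf1 or Cbx3. The TATA motif TATAAA (12.4% of windows) was found before Nfe2l3 and before no other neighbour. The Meis motif TGACAG (15.9%) was found before Hoxa2 and Tax1bp1, and the Pbx-Hox motif TGATNNAT (7.68%) before Hoxa2 and none of the 10 genes. These are matches of letters and not evidence of binding.

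After loss of HIRE1 no change was called in any of the 10 genes, while Hoxa2 fell steeply. In PA2, Hoxa2 measured 73.4, 77.2 and 84.2 CPM in WT and 5.75, 4.75 and 7.10 CPM in HIRE1del, which is −3.74 ± 0.12 as log2 fold change with its SE (adjusted p = 1.56e-09 in the quasi-likelihood test of edgeR). In PA3 it measured 56.0, 62.9 and 65.1 CPM in WT and 23.7, 25.6 and 22.1 CPM in HIRE1del, a log2 change of −1.36 ± 0.11 (adjusted p = 5.04e-05). None of the 10 neighbours was called at an adjusted p under 0.05 by edgeR, DESeq2 or limma-voom in PA2, where 0.438% of 14383 genes were called, or in PA3, where 0.216% were. Against so low a background a count of 0 among 10 genes says little, and the intervals are therefore given. At an unadjusted p under 0.05, edgeR had 1 neighbour in PA2 (Skap2, beside 8.57% of all genes). It had 4 in PA3 (Nfe2l3, Cbx3, Cycs and Hibadh, beside 9.73% of all genes).

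The log2 fold changes of the neighbours ran from −0.27 to 0.22 in PA2, with a median of −0.01 beside −0.01 over all genes. Their 95% intervals reached from −0.48 at the lowest to 0.56 at the highest, so a fall like that of Hoxa2 lay outside the interval of each. In PA3 the values ran from −0.54 to 0.21, with a median of 0.08 beside −0.0019 over all genes, and the intervals from −0.84 to 0.51. The lowest of these bounds corresponds to a decrease of 44.0% and the highest to an increase of 42.1%, in PA3, and in PA2 they were a decrease of 28.4% and an increase of 47.6%.

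**Figure D1:**
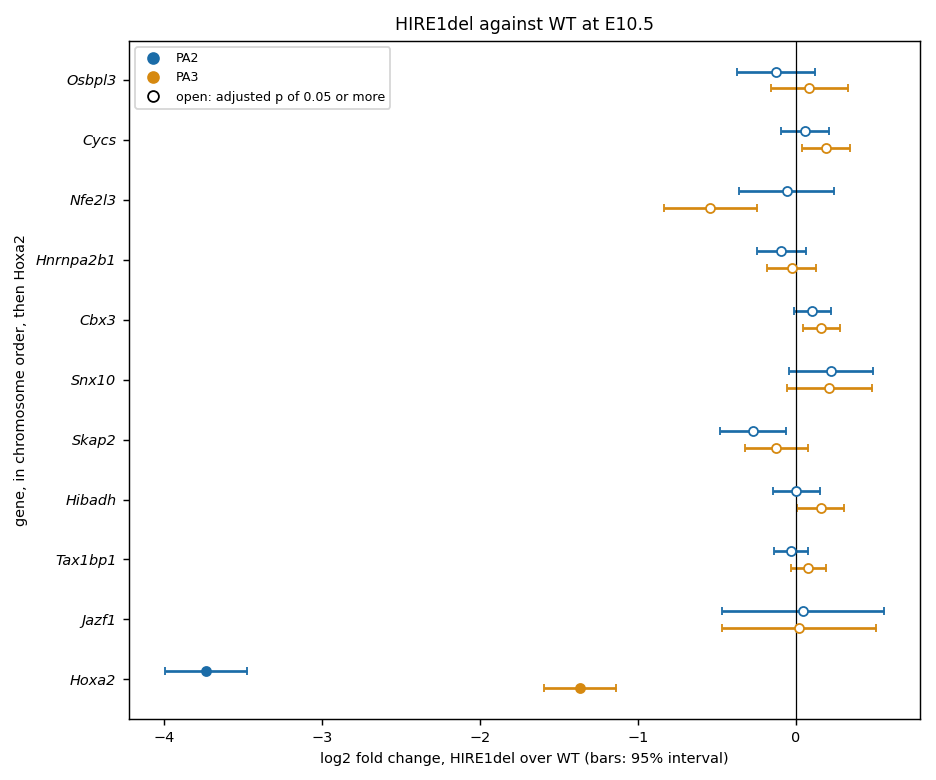
Log2 fold change of each neighbour and of Hoxa2, HIRE1del over WT, in PA2 and PA3, with points for the edgeR estimate from 3 against 3 libraries and bars for the 95% interval. Hoxa2 stands at −3.74 and −1.36, and the neighbours lie between −0.54 and 0.22 with no filled point.

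The neighbour nearest to a call was Nfe2l3, a basic leucine zipper factor of the cap'n'collar family. In PA3 it measured 9.45, 8.36 and 7.59 CPM in WT and 5.65, 5.63 and 6.15 CPM in HIRE1del. Each WT library was above each HIRE1del library. The log2 fold change of −0.54 ± 0.14 (95% interval −0.84 to −0.25) did not pass the correction (edgeR unadjusted p = 0.0016, adjusted p = 0.23). In PA2 it measured 5.50, 6.84 and 5.63 CPM in WT and 5.86, 6.43 and 4.99 CPM in HIRE1del, and the groups overlapped. The difference between the arches in this effect was 0.48 ± 0.20 (adjusted p = 0.89).

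Skap2, an adaptor of Src-family kinase signalling in blood cells and the nearest neighbour to Hoxa2, measured 16.5, 13.7 and 15.0 CPM in PA2 WT and 13.4, 11.1 and 12.9 CPM in PA2 HIRE1del. The WT libraries were all higher, by a narrow margin, and the log2 fold change of −0.27 ± 0.10 (95% interval −0.48 to −0.06) did not pass the correction (edgeR adjusted p = 0.42). In PA3 the change was −0.12 ± 0.09 with overlapping groups. Cbx3, the heterochromatin protein HP1 gamma, was at 108, 108 and 112 CPM in PA2 WT and at 116, 118 and 118 CPM in PA2 HIRE1del, a log2 change of 0.10 ± 0.05 (adjusted p = 0.65). In PA3 it was at 84.1, 94.7 and 91.3 CPM in WT and at 94.5, 106 and 102 CPM in HIRE1del, and the groups overlapped by a narrow margin. The log2 change of 0.16 ± 0.05 (95% interval 0.05 to 0.28, edgeR unadjusted p = 0.010) did not pass the correction (adjusted p = 0.36). Ranges of the 2 genotypes stood apart for 2 neighbours in PA2 (Skap2 and Cbx3), where 13.2% of all genes did so, and for 3 in PA3 (Cycs, Nfe2l3 and Tax1bp1), where 14.3% did.

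The other estimates were small. Snx10, a sorting nexin of endosomes and osteoclasts, differed by 0.22 in PA2 and 0.21 in PA3 with overlapping libraries. Cycs, the cytochrome c of the respiratory chain, differed by 0.06 in PA2 and 0.19 in PA3, and Hibadh, an enzyme of valine breakdown, by 0.00 and 0.16. Hnrnpa2b1, an RNA-binding protein of splicing and RNA transport, differed by −0.09 and −0.02, and Tax1bp1, an autophagy receptor, by −0.03 and 0.08. Osbpl3, a lipid-transfer protein, differed by −0.12 and 0.09. Jazf1, a zinc finger protein of the NuA4/TIP60 complex, had only 31 to 90 counts per genotype library and the widest intervals (−0.47 to 0.56 in PA2). By edgeR, no neighbour differed between PA2 and PA3 in its response (0 called, 0.0487% of all genes called, 1 neighbour at an unadjusted p under 0.05 with a background of 5.52%), whereas for Hoxa2 the difference was −2.37 ± 0.16 (adjusted p = 1.56e-05).

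The neighbours' values overlapped between positions relative to HIRE1, and no test compared the positions. In PA3 the estimates of the 2 centromeric genes and of the 3 beyond the cluster were all above 0. Of the 5 between HIRE1 and the cluster, 2 were above 0 and 3 below. The median log2 fold change in PA2 was −0.06 for the 5 genes between HIRE1 and the Hoxa cluster, −0.03 for the 2 on the centromeric side and 0.00 for the 3 beyond the cluster, and in PA3 it was −0.02, 0.14 and 0.08. In the Hoxa cluster itself, 5 of 7 tested genes and noncoding transcripts fell in each arch. Of 12 other tested genes, from 2 megabases before HIRE1 to 2 megabases past the Hoxa cluster, none was called in PA2 and 1 in PA3. That gene was Ccdc126, 2846 kb from the Hoxa2 start site, at 3.50 ± 0.45 CPM in HIRE1del and 6.38 ± 0.65 CPM in WT (SD, n = 3). In the edgeR fit this was −0.87 ± 0.15 on the log2 scale, with an adjusted p = 0.039. It was not called once any single PA3 library was left out, or when the 6 PA3 libraries were fitted alone, while the log2 fold change stayed between −0.95 and −0.77. In PA2, Ccdc126 was at 4.25 ± 0.57 CPM in HIRE1del and 6.79 ± 0.50 CPM in WT (SD, n = 3), also without overlap. The log2 fold change of −0.67 ± 0.15 missed the threshold in edgeR (adjusted p = 0.086) and passed it in DESeq2 (adjusted p = 0.016). DESeq2 called 162 of all genes in PA2, and edgeR 63. The difference between arches was 0.19 ± 0.21 (edgeR adjusted p = 0.92). Fam221a, which lies next to it and was picked after its values were seen, was at −0.54 ± 0.18 in PA2 and −0.55 ± 0.19 in PA3 on the log2 scale, with ranges apart in both arches and no call (edgeR adjusted p = 0.41 and 0.38).

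**Figure D2:**
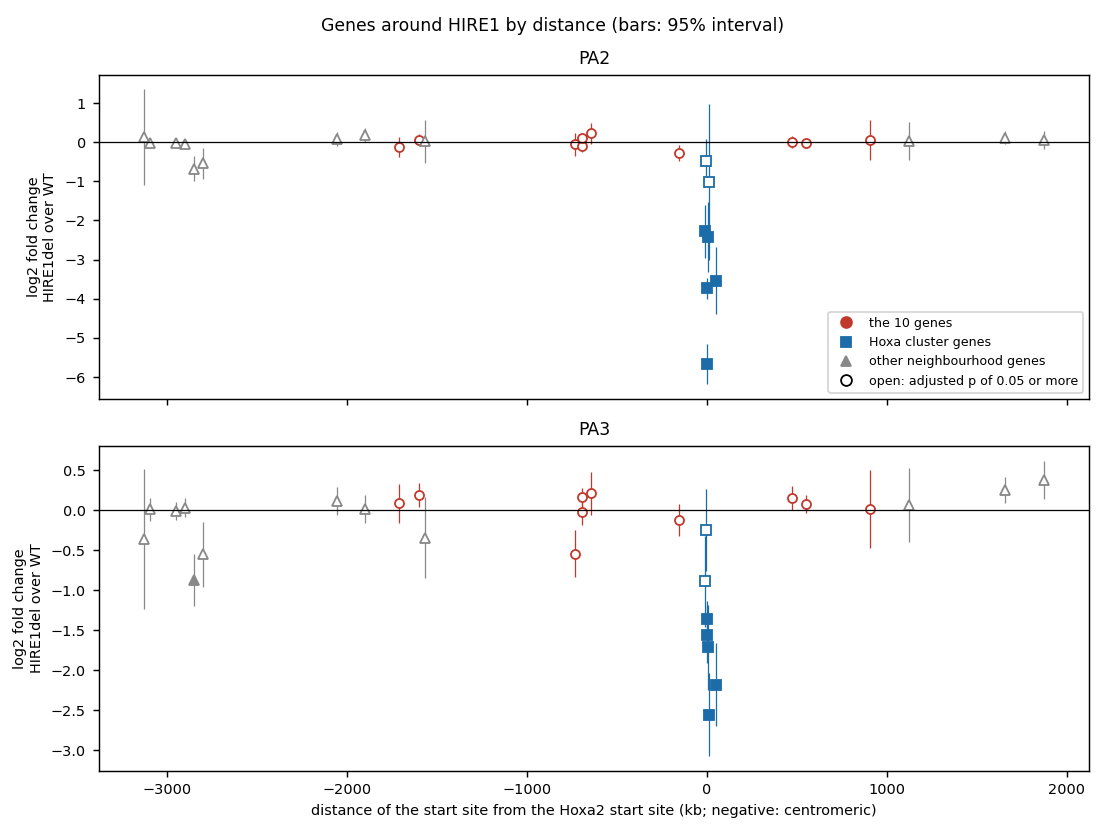
Log2 fold change, HIRE1del over WT, of every tested gene around HIRE1 in PA2 (top) and PA3 (bottom) against the distance of its start site from that of Hoxa2 in kb, with 95% intervals from 3 against 3 libraries. Most of the tested Hoxa cluster genes stand out below 0 near distance 0, while the 10 neighbours, from −1709 to 903.8 kb, stay between −0.54 and 0.22.

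Between the arches, 4 of the 10 genes differed in WT, and Skap2 most. PA3 was set against PA2 at E10.5, where 36.5% of all genes were called, so 4 of 10 is close to the background. Skap2 and Nfe2l3 were higher in PA3 (2 of 10, beside 19.1% of all genes), and Hnrnpa2b1 and Cbx3 lower (2 of 10, beside 17.4%). These 4 were among the 5 genes between HIRE1 and the Hoxa cluster, of which 3 were called in HIRE1del. Position was not tested. In HIRE1del embryos 4 of 10 were called as well (33.4% of all genes), with Skap2 and Osbpl3 higher (18.7% of all genes) and Hnrnpa2b1 and Cbx3 lower (14.7%). Hoxa2 was lower in WT PA3 (log2 fold change −0.35 ± 0.10, edgeR adjusted p = 0.015) and higher in HIRE1del PA3 (2.02 ± 0.12, adjusted p = 2.16e-07). The WT call was lost without the third PA2 or the first PA3 library (−0.30 and −0.29, edgeR adjusted p = 0.072 and 0.064). The neighbours' median was 0.04 in WT and 0.10 in HIRE1del, beside −0.00064 and −0.00015 over all genes.

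Skap2 measured 28.5, 28.3 and 25.4 CPM in WT PA3 against the 13.7 to 16.5 CPM of WT PA2, and 23.9, 26.9 and 24.7 CPM in HIRE1del PA3 against 11.1 to 13.4 CPM in HIRE1del PA2. All PA3 libraries were above all PA2 libraries within each genotype. The log2 fold change was 0.86 ± 0.09 in WT (edgeR adjusted p = 1.80e-05) and 1.01 ± 0.10 in HIRE1del (adjusted p = 5.63e-06), opposite in sign to Hoxa2 in WT. Of its 6 relatives among Src kinases and adaptors, 2 were higher in WT PA3 and 1 lower, with Lyn at 0.47 and Yes1 at −0.28 on the log2 scale, and Skap1 at 1.32 CPM in PA3 and 0.119 CPM in PA2. Skap2 and Lyn are used in blood cells, and markers of red blood cells were higher in PA3 (5 of 5 called, median log2 fold change 3.09 in WT), as did markers of neurons (5 of 5 called), epithelium (4 of 5) and endothelium (3 of 4 tested), whereas of 10 macrophage markers none was called by edgeR (median 0.50). Summed macrophage markers were at 33.1 to 36.4 CPM in WT PA2 and 38.6 to 45.2 CPM in WT PA3. The part of these cells in the differences of Skap2 and Nfe2l3 was not tested.

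Nfe2l3 was higher in WT PA3 by 0.50 ± 0.14 (edgeR adjusted p = 0.012) and showed 0.01 ± 0.14 in HIRE1del (adjusted p = 0.96). The difference between the genotypes in this, 0.48 ± 0.20, was not called (edgeR adjusted p = 0.89), so no dependence on HIRE1 is shown. Its test without the first WT PA3 library missed the threshold (0.41, edgeR adjusted p = 0.055). Of 8 relatives, the cap'n'collar and small Maf factors that pair with them, 5 were higher and 1 lower in WT PA3. Over all genes 19.1% were called higher and 17.4% lower. The relatives called higher included Nfe2, an erythroid factor, at 24.1 CPM in PA3 against 3.82 in PA2, and Mafk (0.97) and Mafg (0.37 on the log2 scale).

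Hnrnpa2b1 and Cbx3 were lower in PA3 in both genotypes. Hnrnpa2b1 measured 1164, 1004 and 1092 CPM in WT PA2 and 790, 903 and 817 CPM in WT PA3, without overlap (log2 fold change −0.38 ± 0.07, adjusted p = 0.0013). Cbx3 was at 108 to 112 CPM in WT PA2 and at 84.1 to 94.7 CPM in WT PA3 (−0.28 ± 0.05, adjusted p = 0.0016). In HIRE1del the differences were −0.31 ± 0.07 and −0.22 ± 0.05 (edgeR adjusted p = 0.005 and 0.0075). Both HP1 relatives of Cbx3 were lower in WT PA3 as well, Cbx1 at −0.33 and Cbx5 at −0.26 on the log2 scale. So were 5 of 6 hnRNP relatives of Hnrnpa2b1, led by Hnrnpd (−0.58) and Hnrnpdl (−0.46), beside 17.4% of all genes. Crest mesenchyme markers were also lower in WT PA3, 5 of 8 called and 1 higher, with a summed level of 691 to 857 CPM against 1047 to 1164 CPM in PA2. Their part in these differences was not tested.

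Of the remaining genes, Jazf1 measured 1.20, 2.00 and 2.22 CPM in WT PA2 and 3.29, 2.43 and 2.41 CPM in WT PA3, a difference of 0.57 ± 0.23 that missed the threshold (adjusted p = 0.069). It passed it without the third WT PA2 library (0.75, edgeR adjusted p = 0.048). In HIRE1del the difference was 0.55 ± 0.23 (adjusted p = 0.089). Osbpl3 was higher in HIRE1del PA3 by 0.32 ± 0.11 (adjusted p = 0.045), a call lost under limma-voom, in the 6 libraries alone and without any of 5 of the 6 libraries. For Cycs, Snx10, Hibadh and Tax1bp1 the 95% intervals in WT ran from −0.20 to 0.35 at most.

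**Figure D3:**
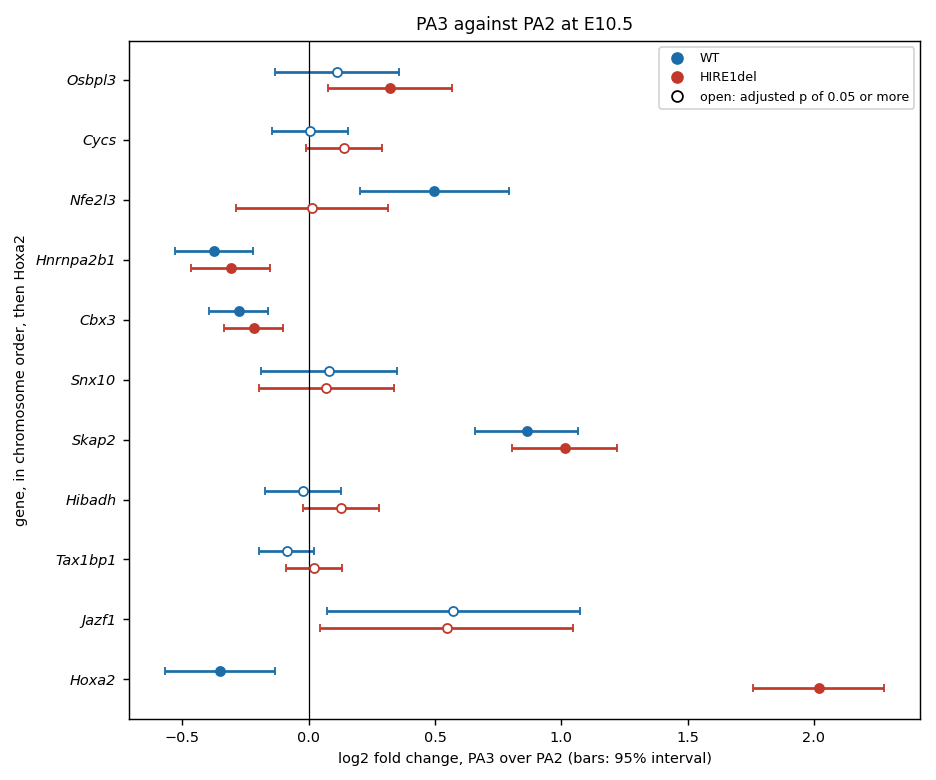
Log2 fold change of each neighbour and of Hoxa2, PA3 over PA2, in WT and in HIRE1del, with 95% intervals from 3 against 3 libraries. Skap2 stands at 0.86 and 1.01 in the 2 genotypes, Hnrnpa2b1 and Cbx3 lie below 0 in both, and Hoxa2 changes from −0.35 to 2.02.

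The stage series held the large differences. Nfe2l3 and Jazf1 rose steeply from PA2 to the pinna, Osbpl3 rose less, Skap2 fell, and Hnrnpa2b1 and Cbx3 fell together. Hoxa2 itself measured 122, 126 and 128 CPM at E10.5, 202, 222 and 212 CPM at E12.5 and 164, 155 and 147 CPM at E14.5. It rose by 0.76 ± 0.06 (log2, edgeR adjusted p = 8.53e-07) and then fell by 0.45 on the log2 scale (adjusted p = 5.88e-05). The comparisons share libraries, so each gene's own values are set beside those of Hoxa2 and no count is taken across the comparisons.

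From E10.5 to E12.5, 8 of the 10 genes were called, 3 higher and 5 lower, where 68.8% of 13438 genes were called, 35.0% as higher and 33.7% as lower. From E12.5 to E14.5, 7 were called, 5 higher and 2 lower (65.7% of all genes, 32.6% higher and 33.1% lower). From E10.5 to E14.5, 6 were called, 3 higher and 3 lower (82.0% of all genes, 42.0% higher and 40.0% lower). The neighbours' median log2 fold changes were −0.27, 0.37 and 0.01, beside 0.01, −0.01 and 0.02 over all genes. The calls were near the background in each single step, and from E10.5 to E14.5 the 6 of 10 were below it. How many of all genes changed as much as single neighbours was not counted.

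Nfe2l3 measured 0.937, 1.37 and 1.27 CPM at E10.5, 14.9, 18.2 and 17.5 CPM at E12.5 and 48.5, 49.1 and 42.1 CPM at E14.5. The 3 stages did not overlap and ordered as E10.5, E12.5, E14.5. It rose 14.1-fold to E12.5 (log2 3.82 ± 0.15, edgeR adjusted p = 3.81e-09) and 2.76-fold more to E14.5 (1.46 ± 0.11, adjusted p = 5.04e-07), while Hoxa2 fell over the latter step. From E10.5 to E14.5 the rise was 38.9-fold. Of its 8 relatives 3 rose and 2 fell between those stages, where 42.0% of all genes were called higher and 40.0% lower. Among the relatives called were Maff at 4.12, Nfe2 at 2.13 and Bach2, a repressor of the same family, at −2.38 on the log2 scale.

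Jazf1 measured 1.34, 0.721 and 1.80 CPM at E10.5, 8.84, 8.88 and 9.01 CPM at E12.5 and 25.5, 24.3 and 24.5 CPM at E14.5, again with no overlap between stages. It rose by 2.78 ± 0.21 (edgeR adjusted p = 4.66e-07) and by a further 1.47 ± 0.16 (adjusted p = 1.30e-05), 19.1-fold in all. Most of the complex in which JAZF1 works went the other way. Of 16 members of NuA4/TIP60, 11 fell and 4 rose from E10.5 to E14.5, beside 40.0% of all genes lower and 42.0% higher. Their median was −0.49, and among them were Actl6a (−1.74), Ruvbl2 (−1.76) and Yeats4 (−1.40).

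Osbpl3 measured 20.1, 19.8 and 21.3 CPM at E10.5, 26.3, 25.3 and 25.9 CPM at E12.5 and 45.6, 44.4 and 43.7 CPM at E14.5. The stages did not overlap, and it rose by 0.34 ± 0.06 and then by 0.79 ± 0.06 on the log2 scale (edgeR adjusted p = 0.00051 and 8.70e-07). Of 11 other oxysterol-binding proteins, 9 were higher and 1 lower from E10.5 to E14.5, led by Osbpl5 (1.68), Osbpl6 (0.94) and Osbpl2 (0.73). Of all genes, 42.0% were called higher and 40.0% lower in that comparison.

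Markers of other cells moved over the same stages. Melanocyte markers (4 of 4 called, each higher) summed to between 5.92 and 7.93 CPM at E10.5 and between 335 and 384 CPM at E14.5, and glial markers to between 20.5 and 23.4 CPM and between 84.3 and 99.8 CPM. Each of 4 glial markers was called higher. Of the endothelial markers, 1 of 4 tested was called, Kdr, from 3.26 to 141 CPM on average, while Pecam1 was at 2.89 and 2.43, Tek at 0.85 and 0.70 and Cdh5 at 0.91 and 2.18 CPM, and Cldn5 was listed at 0. Their sum, 6.52 to 8.82 CPM at E10.5 and 108 to 172 CPM at E14.5, was thus mostly Kdr at the later stage. Their part in the rises of Nfe2l3, Jazf1 and Osbpl3 was not tested.

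**Figure D4:**
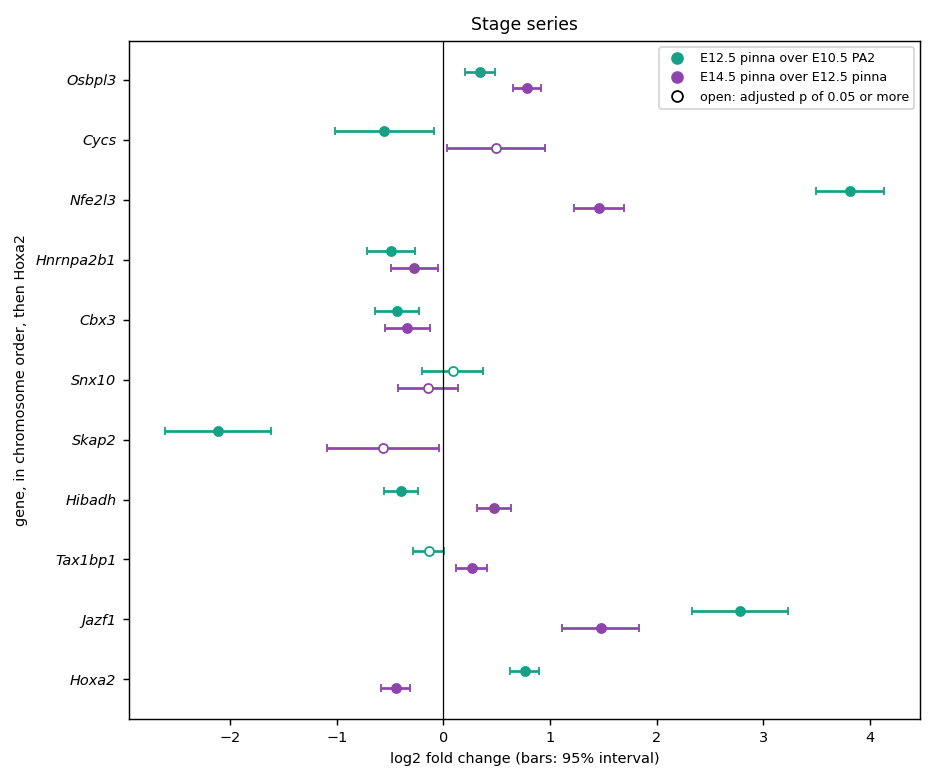
Log2 fold change of each neighbour and of Hoxa2 from E10.5 PA2 to E12.5 pinna and from E12.5 to E14.5 pinna, with 95% intervals from 3 against 3 libraries. Nfe2l3 and Jazf1 lie far right of 0 in both steps, Skap2 far left in the first (−2.12), and Hoxa2 moves right and then left.

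Skap2 went down. It measured 7.03, 5.59 and 5.56 CPM at E10.5, 1.52, 1.47 and 1.19 CPM at E12.5 and 1.08, 0.694 and 1.05 CPM at E14.5, the last from 33 to 49 counts per library. The fall to E12.5 was 4.34-fold (log2 −2.12 ± 0.23, edgeR adjusted p = 7.85e-06), a step at which Hoxa2 rose. The further difference of −0.57 ± 0.24 missed the threshold (adjusted p = 0.055) and passed it with total counts only, without the third E12.5 library or without the first E14.5 library (edgeR adjusted p = 0.022, 0.048 and 0.049). From E10.5 to E14.5 the fall was 6.42-fold. Lyn, a Src-family kinase, fell by 1.60 on the log2 scale between the same stages. Of 10 macrophage markers only Cd68 and Ptprc passed the filter on low counts. Cd68 averaged 4.23 CPM at E10.5, 3.75 at E12.5 and 7.43 at E14.5, Ptprc 0.13, 0.089 and 1.47 CPM, and each of the other 8 averaged at most 0.53 CPM at any stage, so the sum of all 10 (5.09 to 5.77, 4.02 to 4.72 and 7.69 to 12.9 CPM) was mostly Cd68. Both were called higher from E12.5 to E14.5 and neither from E10.5 to E12.5. The part of these cells in the fall of Skap2 was not tested.

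Hnrnpa2b1 measured 1047, 912 and 1086 CPM at E10.5, 636, 754 and 773 CPM at E12.5 and 543, 674 and 574 CPM at E14.5. The E10.5 libraries were above all others, and E12.5 and E14.5 overlapped. Its partner across the start sites, Cbx3, measured 73.7, 71.8 and 65.5 CPM at E10.5, 50.4, 55.8 and 49.6 CPM at E12.5 and 39.5, 47.3 and 36.4 CPM at E14.5, without overlap between stages. The log2 fold changes to E12.5 were −0.49 ± 0.10 and −0.44 ± 0.10 (edgeR adjusted p = 0.0011 and 0.0018), those from E12.5 to E14.5 were −0.27 ± 0.10 and −0.34 ± 0.10 (adjusted p = 0.034 and 0.009), and those over both steps were −0.77 ± 0.10 for each. The second step of Hnrnpa2b1 missed the threshold without the second or the third E12.5 library, or without the first or the third E14.5 library (−0.24, −0.23, −0.21 and −0.24).

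Their relatives fell too. Both other HP1 genes fell from E10.5 to E14.5, where 40.0% of all genes were called lower, Cbx1 by 1.32 and Cbx5 by 1.22 on the log2 scale. So did 6 of 6 hnRNP relatives, among them Hnrnpab (−1.83), Hnrnpa1 (−1.43) and Hnrnpa0 (−1.85). Each of 9 cell cycle genes fell in the same comparison, and their summed level went from between 4491 and 4967 CPM at E10.5 to between 2328 and 2445 CPM at E12.5 and between 1025 and 1409 CPM at E14.5. The part of cell division in the falls of Cbx3 and Hnrnpa2b1 was not tested.

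Hibadh, which works in mitochondria, dipped at E12.5. It measured 38.4, 34.5 and 33.0 CPM at E10.5, 27.1, 27.3 and 25.9 CPM at E12.5 and 38.2, 37.8 and 35.6 CPM at E14.5. E12.5 was below both other stages, which overlapped, with log2 fold changes of −0.40 ± 0.07 and then 0.48 ± 0.07 (edgeR adjusted p = 0.00047 and 0.00014). Hoxa2, in contrast, was highest at E12.5. Of 9 enzymes of valine breakdown 2 rose and 3 fell to E12.5, beside 35.0% of all genes called higher and 33.7% lower. Cycs measured 11.1, 6.55 and 7.19 CPM at E10.5, 4.57, 5.94 and 6.39 CPM at E12.5 and 6.87, 8.98 and 7.95 CPM at E14.5. Its fall of 0.55 on the log2 scale to E12.5 (adjusted p = 0.036) was smaller, and no longer called, without the first E10.5 library (−0.29, edgeR adjusted p = 0.19), and the call was also lost without the first or the second E12.5 library, with total counts only and under limma-voom. The difference of 0.49 ± 0.21 from E12.5 to E14.5 missed the threshold (adjusted p = 0.057). Of its tested partners in respiration and apoptosis, 8 of 9 fell to E12.5, beside 33.7% of all genes. As 26.1% of the 50-base stretches of Cycs also occur in other genes, mostly processed copies, its counts are less certain than those of the others, and for Cbx3 that share was 8.67%.

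Snx10 and Tax1bp1 had small differences between stages. Snx10 measured between 11.6 and 15.7 CPM over the 9 stage libraries, with overlapping stages and 95% intervals of −0.20 to 0.37 and −0.43 to 0.13 for the 2 steps. Of its 5 small sorting nexin relatives 1 was called to E12.5, beside 68.8% of all genes. Tax1bp1 measured 162 to 181 CPM at E12.5 and 195 to 210 CPM at E14.5, a rise of 0.26 ± 0.07 (edgeR adjusted p = 0.0046) that fell to 0.14 and missed the threshold with total counts only (adjusted p = 0.076). Over both steps 4 of 5 other autophagy receptors rose (beside 42.0% of all genes), Calcoco1 by 1.29 and Sqstm1 by 1.16.

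**Figure D5:**
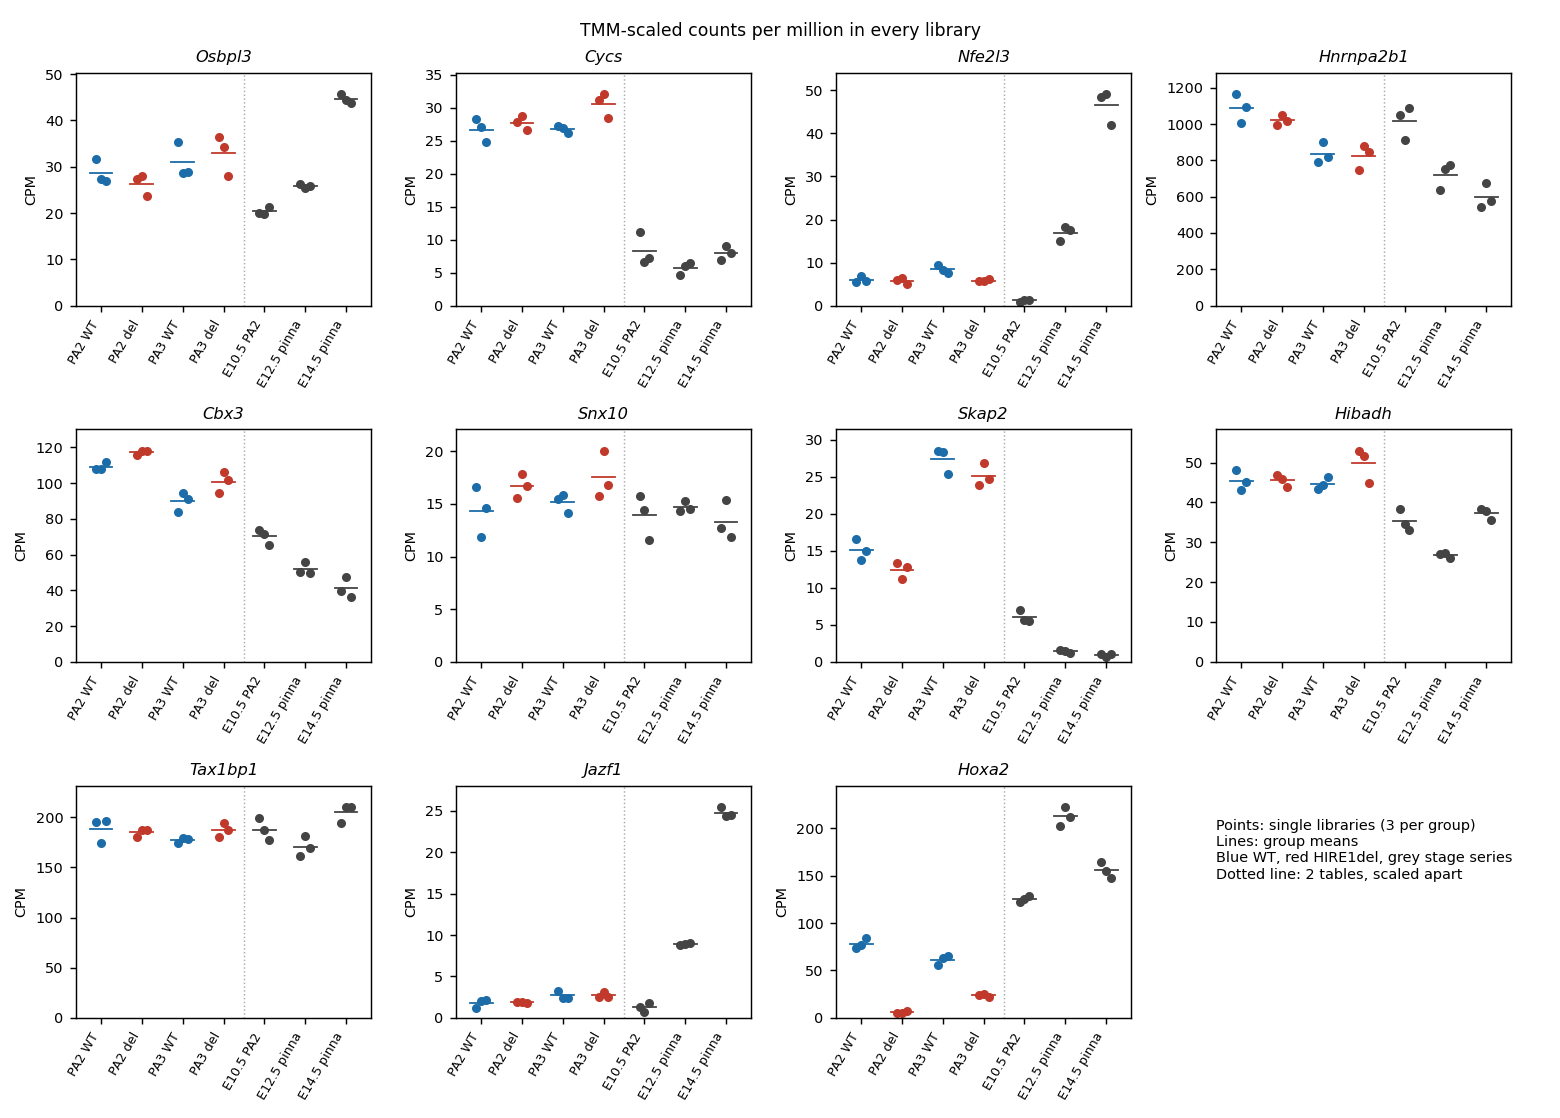
TMM-scaled CPM of each neighbour and of Hoxa2 in all 21 libraries, with points for libraries and lines for the means of 3, and with WT in blue, HIRE1del in red and the stage series in grey. Hoxa2 drops in both HIRE1del groups, where no neighbour was called, while Nfe2l3 and Jazf1 climb and Skap2 sinks over the stages.

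Levels between genes were compared as mean CPM per kb of exon. Hnrnpa2b1 was the most abundant neighbour in each of the 7 groups, at 165 ± 12.1 in WT PA2 and 90.7 ± 10.4 in the E14.5 pinna (SD, n = 3), and Cbx3, Hibadh and Tax1bp1 followed in WT PA2 at 33.8, 20.4 and 18.9. Hoxa2 was at 34.6 there. Jazf1 (0.712), Snx10 (1.54), Skap2 (1.67) and Nfe2l3 (2.02) were the lowest in WT PA2. At E14.5, Nfe2l3 (15.7 ± 1.31) had come close to Hibadh (16.7) and Skap2 had become the lowest at 0.105 ± 0.024. The 2 sets of E10.5 PA2 libraries were sequenced and scaled apart. Nfe2l3 was at 5.99 ± 0.74 CPM in the dissected WT PA2 and 1.19 ± 0.23 CPM in the sorted one, Skap2 at 15.1 ± 1.41 and 6.06 ± 0.84 CPM, and no test joins them.

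Likeness to Hoxa2 was measured as the root mean square difference between the group means of log2(CPM + 0.5), centred within each table, over 7 groups. No neighbour was close. Osbpl3 came nearest at 1.09, with 21.3% of 12870 other genes nearer, followed by Tax1bp1 at 1.11 (37.4% nearer) and Hibadh at 1.14 (54.1%). Jazf1 (1.43, 95.7%) and Nfe2l3 (1.57, 97.6%) were the farthest. A gene at the same level in every group would sit at 1.10 on this scale, of whose square 96.6% came from the 4 genotype groups. Among all genes, the patterns most like that of Nfe2l3 were those of Sorcs3 (0.13) and Erc2 (0.14), those most like Jazf1 were Vwa2 and Atf3 (0.088 each), and those most like Skap2 were Tspan12 (0.093) and Tmem30b (0.097). For Osbpl3 they were Ugp2 (0.022) and Dennd1b (0.033). Hnrnpa2b1 and Cbx3 differed from each other by 0.083 over the 7 groups. Cbx3 ranked 163 among the genes nearest to Hnrnpa2b1, and Hnrnpa2b1 ranked 350 among those nearest to Cbx3. Other neighbours were as near to each other or nearer, Cycs and Hibadh at 0.038 and Hibadh and Tax1bp1 at 0.082.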

How the data were processed

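RNA-seq counts of 21 mouse libraries were used, 12 of the genotype series and 9 of the stage series, with 3 per group. The values are raw gene-level read counts that the authors produced in QuasR (spliced alignment to GRCm38, counting over UCSC known gene exons with the orientation set to opposite) and deposited without normalization. The labels name an unstranded and a stranded kit, so overlapping genes on opposite strands may share reads. Genotype libraries were read at 50 bases from both ends, stage libraries from one end, and the tables were analysed apart. Each table held 24594 genes and 0 columns were left unused.

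The filter kept 14383 and 13438 genes that reached 1 CPM in 2 or more libraries. Counts were scaled by TMM and 1 mean per group was fitted with edgeR 4.0.16 in R 4.3.3. Contrasts were tested, two-sided, with the quasi-likelihood test, p-values received the Benjamini-Hochberg correction over every gene tested, and calls needed an adjusted p under 0.05. Intervals are 95% intervals of the log2 fold change. Medians, counts and shares over lists are descriptions. On simulated counts for PA2 HIRE1del against WT, 200 of 14070 genes had a true log2 change of 1, up or down, and 100% were recovered. On those for E12.5 against E10.5, with 200 of 13046 genes changed, 100% were as well. The changed genes were drawn only from those above a minimum mean level, with the same dispersion for every gene. The recovery therefore says nothing about smaller changes or low counts.

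Whether replicate numbers pair libraries was checked by the correlation of their departures from group means. For replicates 1 to 3, PA2 correlated with PA3 at r = 0.57, 0.26 and 0.41 (WT) and r = 0.37, 0.43 and 0.43 (HIRE1del). The main fit nevertheless held no block, so the p-values between arches ignore this pairing. A block for same-numbered arches was run as an alternative only. Between genotypes and between stages the numbers did not pair.

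The genes, the lists of relatives and markers and the tests were chosen with earlier results of these data known. Named are all 10 genes and Hoxa2 in each contrast (some by their range only), up to 5 neighbourhood genes called between genotypes, up to 3 called relatives per list by adjusted p, and for genes with a called log2 fold change of at least 1 the 2 genes most like them. Some relatives and neighbourhood genes are given by count only. DESeq2 1.42.0, limma-voom (limma 3.58.1), other scalings, filters and thresholds, replicate blocks and leaving out each library were alternatives.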

Additional observations from a re-analysis of the deposited data

How the results depend on the processing

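The count of 0 called neighbours between genotypes, in either arch and for the difference between arches, held under each of the scalings, filters, tests, thresholds, blocks and left-out libraries tried. Requiring a log2 fold change of at least 0.5 left 1 neighbour called between arches in WT and 1 in HIRE1del, 4 from E10.5 to E12.5 and 3 from E12.5 to E14.5. Leaving out each library gave 3 to 5 called neighbours between arches in WT and in HIRE1del, 7 to 9 from E10.5 to E12.5, 6 to 8 from E12.5 to E14.5 and 6 to 7 from E10.5 to E14.5. Among the other genes of the neighbourhood, DESeq2 called 1 (Ccdc126) in PA2 where edgeR called 0, while over all genes DESeq2 called 162 and edgeR 63. For the same neighbourhood genes, the 6 PA3 libraries alone gave 0 in PA3. Leaving out each library gave 0 to 0 in PA3 and 3 to 6 between arches in HIRE1del. Tax1bp1 was called in WT PA3 without the second PA2 library (−0.14), at E12.5 against E10.5 without the third E10.5 or second E12.5 library (−0.18 each) and at E14.5 against E10.5 without the first E10.5 library (0.17), Hibadh in HIRE1del PA3 without the third PA3 library (0.20), and Cycs from E12.5 to E14.5 under DESeq2, in those 6 libraries alone or without the first E14.5 library (0.50, 0.49 and 0.59). The cause of these changes was not tested. With 0.1 and 2 CPM as pseudocount, 8 and 6 of the 10 genes kept their place in the order of likeness to Hoxa2. No alternative reversed a called value.

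The replicate block for pairs of PA2 and PA3 libraries changed no call of a neighbour (4 called in WT and 4 in HIRE1del), but raised the genes called for the difference between arches from 7 to 26 of all genes. A block on the replicate number, which does not pair genotypes or stages, gave 0 called neighbours in PA2 and in PA3, 7, 7 and 6 called neighbours in the 3 stage comparisons, and lost Cycs from E10.5 to E12.5. Low counts limit Jazf1 in the genotype series and Skap2 at E14.5.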
